A study of Homo sapiens with 7 samples.

Results

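Described here are 1 kb bins of the genome with less CpG methylation in wild-type cardiac progenitors and cardiomyocytes than in wild-type stem cells and cardiac mesoderm. HUES8 cells, a line derived from a human embryo, were differentiated toward heart muscle with CHIR99021, an activator of Wnt signalling, followed by IWP2, an inhibitor of it. DNA was profiled by enhanced reduced representation bisulfite sequencing, which reads CpG-rich fragments and reports unmethylated cytosine as T. A triple knockout (TKO) lacking TET1, TET2 and TET3 was sampled on day 0 as stem cells (SC), on day 3 as cardiac mesoderm (CME) and on day 8 as cardiac progenitors (CP). Wild-type (WT) cells were sampled at the same stages and as beating cardiomyocytes (CM, day 14 in the series text and day 15 in the sample's description). For WT CM the stage was taken from the title, because the source field reads CME. Between CP and CM the culture passed through a glucose-free lactate medium that enriches cardiomyocytes. The labels do not say how many clones the TKO cells represent, and there was 1 library per genotype and stage, 7 in all.

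A bin was chosen when it held 5 or more CpGs with 10 or more reads in all 7 libraries and when its level, averaged over WT CP and WT CM, lay 30 percentage points or more below its average over WT SC and WT CME. The level is the share of reads that carry C, summed over both strands and over the CpGs of the bin. By this rule 1710 bins of 85087 measured were chosen, which is 2.01% of all bins and 3.14% of the 54373 bins with an early WT level of 30% or more. The 4 WT libraries thus chose the bins, and their fall is a description and no finding. The levels of the 3 TKO libraries had no part in the choice, and their reads entered only through the coverage requirement.

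TET enzymes oxidise 5-methylcytosine, and the oxidised bases are then lost through dilution at replication or through excision and repair. Cell-type genes and their enhancers often carry methylation in stem cells and lose it as a lineage forms, while CpG-dense promoters are mostly unmethylated throughout. Bisulfite reads do not separate 5-methylcytosine from 5-hydroxymethylcytosine, so a level covers both.

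Promoters that lay in chosen bins are shown first, because there a bin with loss holds the start of a gene with a known role in heart or muscle. TNNI3 encodes cardiac troponin I, the inhibitory subunit of the thin filament's calcium switch. LDB3 encodes a protein of the Z-disc, the anchor plane of the sarcomere. FXYD1 encodes phospholemman, a regulator of the sodium pump in heart and muscle. MIR1-1HG is the host transcript of the muscle microRNA miR-1-1. PRKAG2 encodes a regulatory subunit of AMP-activated protein kinase, and its mutations cause a cardiomyopathy. Each sequence runs 250 bases before to 50 after a start listed in RefSeq (GRCh38.p14), 5′ to 3′ on the gene's strand, and capitals mark the CpGs with 10 or more reads in all 7 libraries. The hg19 positions were found by matching the spacing of CpGs in the sequence to the CpGs listed in the files: chr19:55669051-55669350 on the minus strand for TNNI3, chr10:88428071-88428370 on the plus strand for LDB3, chr19:35630288-35630587 on the plus strand for FXYD1, chr20:61147410-61147709 on the plus strand for MIR1-1HG, and chr7:151433300-151433599 on the minus strand for PRKAG2. All of these starts were chosen for display after their values were seen. TNNI3, LDB3 and PRKAG2 were also on the cardiac gene lists used below, and FXYD1 and MIR1-1HG were not.
TNNI3: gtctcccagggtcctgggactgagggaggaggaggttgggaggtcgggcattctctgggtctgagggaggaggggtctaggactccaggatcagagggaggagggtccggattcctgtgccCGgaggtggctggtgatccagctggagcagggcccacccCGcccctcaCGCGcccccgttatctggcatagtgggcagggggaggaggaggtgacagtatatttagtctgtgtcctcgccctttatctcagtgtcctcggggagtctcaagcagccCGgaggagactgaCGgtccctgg
LDB3: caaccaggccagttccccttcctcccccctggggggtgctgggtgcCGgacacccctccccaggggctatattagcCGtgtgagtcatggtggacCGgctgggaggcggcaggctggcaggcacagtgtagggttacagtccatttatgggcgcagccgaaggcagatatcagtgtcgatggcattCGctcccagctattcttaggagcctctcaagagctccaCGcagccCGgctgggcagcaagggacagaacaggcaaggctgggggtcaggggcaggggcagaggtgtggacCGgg
FXYD1: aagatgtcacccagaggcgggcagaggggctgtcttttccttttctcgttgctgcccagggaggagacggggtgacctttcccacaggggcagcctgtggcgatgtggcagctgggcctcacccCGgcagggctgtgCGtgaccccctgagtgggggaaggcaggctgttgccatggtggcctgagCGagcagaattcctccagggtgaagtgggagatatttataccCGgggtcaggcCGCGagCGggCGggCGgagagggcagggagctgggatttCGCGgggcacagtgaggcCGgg
MIR1-1HG: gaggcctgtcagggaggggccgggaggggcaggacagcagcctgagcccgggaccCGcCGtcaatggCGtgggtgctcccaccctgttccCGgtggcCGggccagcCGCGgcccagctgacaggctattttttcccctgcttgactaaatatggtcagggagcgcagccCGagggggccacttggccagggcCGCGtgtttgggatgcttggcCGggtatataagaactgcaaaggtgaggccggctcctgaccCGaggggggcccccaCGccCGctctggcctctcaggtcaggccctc
PRKAG2: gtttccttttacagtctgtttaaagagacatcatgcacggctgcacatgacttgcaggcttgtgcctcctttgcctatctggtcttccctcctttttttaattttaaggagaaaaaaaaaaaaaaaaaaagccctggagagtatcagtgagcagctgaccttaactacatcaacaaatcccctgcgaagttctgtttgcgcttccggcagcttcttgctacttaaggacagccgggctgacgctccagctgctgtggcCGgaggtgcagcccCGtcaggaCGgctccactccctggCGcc

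Since each group is 1 library, the tests reported here compare libraries and cover counting error only. The names of the 2 early WT libraries carry a suffix that the other 5 lack, so in WT the early-to-late difference and the suffix cannot be told apart. No TKO library carries the suffix, and its effect on the levels was not tested. The share of mitochondrial cytosine read as C, a measure of incomplete conversion, was 0.141%, 0.387% and 0.139% across TKO SC, CME and CP, and 1.46%, 1.44%, 0.219% and 0.216% across WT SC, CME, CP and CM. Total coverage ran from 120742115 to 213058905 reads summed over CpG cytosines, with a median of 45 to 94 reads per shared CpG. In bulk DNA, a partial loss in all cells and a full loss in some cells cannot be told apart.

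Most of the chosen bins stayed highly methylated in TKO cells. The median level was 85.6%, 85.6% and 89.5% across TKO SC, CME and CP, against 81.5%, 79.7%, 34.2% and 35.1% across WT SC, CME, CP and CM. The middle 50% of bins spanned 85.5% to 92.2% in TKO CP, and 20.1% to 45.6% in WT CP. Over all measured bins the medians were 83.6%, 83.4% and 87.0% across TKO SC, CME and CP, and 83.1%, 83.9%, 76.5% and 77.3% across WT SC, CME, CP and CM. In TKO CP 1511 chosen bins (88.4%) stood above 80%, as did 59.7% of all bins. In all, 15 chosen bins were under 50% there, and 3 were under 20%. Under 20% were 427 chosen bins in WT CP and 395 in WT CM.

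**Figure D1:**
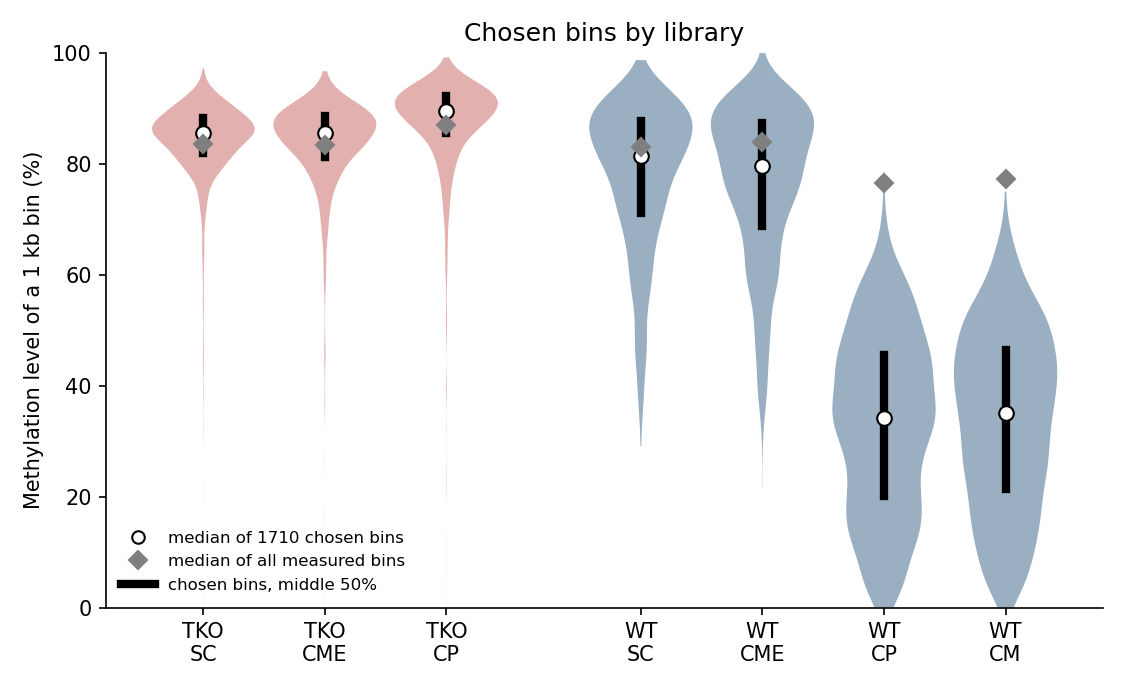
Methylation level (%, y axis) of the 1710 chosen 1 kb bins in each of the 7 libraries (x axis), with TKO in red and WT in blue; violins show the spread over bins, black bars the middle 50%, white circles the median and grey diamonds the median of all 85087 measured bins. The chosen bins stay near 85.6% to 89.5% in the 3 TKO libraries, and in WT they separate into high early and low late libraries, which is what the rule selects.

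Within TKO, the change from the mean of SC and CME to CP had a median of 3.68 points over the chosen bins (middle 50% of bins from 1.24 to 6.14 points) and 1.80 points over all bins. The change was upward in 1393 chosen bins (81.5%) and in 69.5% of all bins. In WT the difference by which the bins were chosen had a median of -40.1 points and reached -87.4 points, beside -1.41 points over all bins. A fall of 30 points or more in TKO, the size the rule asks of WT, occurred in 1 chosen bin and in 14 of all bins. Among bins with an early WT level of 70 to 90%, 19534 in all, the TKO change had a median of 3.85 points in the 1049 chosen bins and 3.09 points in the bins not chosen.

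**Figure D2:**
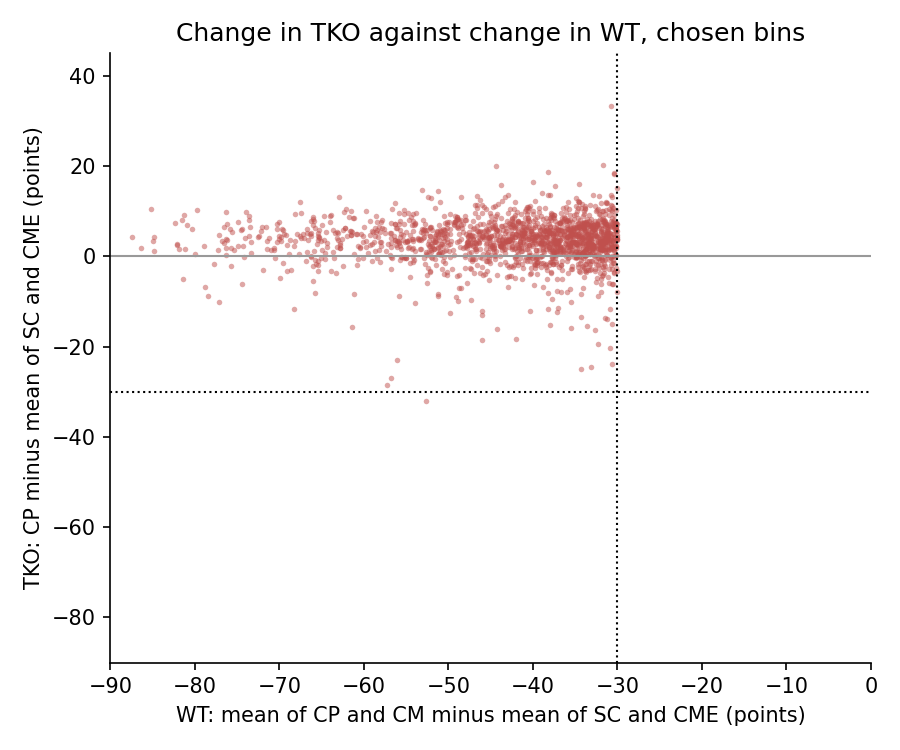
Each point is 1 of the 1710 chosen bins, with the WT change (mean of CP and CM minus mean of SC and CME, points, x axis) against the TKO change (CP minus mean of SC and CME, points, y axis); dotted lines mark falls of 30 points. The middle 50% of points lie between 1.24 and 6.14 on the TKO axis, the WT axis reaches -87.4, and 1 point lies below the horizontal dotted line.

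Per-bin tests of the TKO libraries gave few calls among the chosen bins. A bin was called when Fisher's exact test (two-sided) on its reads had an adjusted p below 0.01 by the Benjamini-Hochberg method over all 85087 bins and the difference was 25 points or more. TKO CP was called lower than TKO SC in 6 chosen bins (0.351%), where 0.0693% of all bins were called. It was called higher in 1 chosen bin, where 1.08% of all bins were called. This balance depends on the rule: with bins chosen by WT CP minus WT CME alone, 3 were called lower and 10 higher, and with bins shifted by 500 bp, 6 lower and 4 higher. TKO CP was called lower than TKO CME in 4 chosen bins (0.234%), where 0.0599% of all bins were called, and higher in 5 (0.292%), where 0.772% were. TKO CME was called lower than TKO SC in 1 chosen bin (0.0188% of all bins) and higher in 0 (0.0223% of all bins). A bin above 75% cannot rise by 25 points, and 93.7% of chosen bins lay above 75% in TKO SC, as did 61.3% of all bins. Likewise a bin under 25% cannot fall by 25 points. All chosen bins had an early WT level of 30% or more, as did 54373 of the 85087 bins. The shares called lower are therefore not set against a like background. TKO CP was called higher than WT CP in 1673 chosen bins, where 12.0% of all bins were called, and lower in 0, where 0.0458% were. WT CP took part in the choice of the bins, so nothing is read from this last pair of counts.

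The WT loss was concentrated in the step from mesoderm to progenitors. WT CP minus WT CME had a median of -40.2 points over the chosen bins. The earlier step, WT CME minus WT SC, had a median of -0.81 points, with 8 bins lower and 1 higher by 25 points or more. The later step, WT CM minus WT CP, had a median of 0.69 points, with 13 bins lower and 7 higher by 25 points or more. The rule averages CP with CM and SC with CME, so it favours bins with a single step between these pairs.

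Chosen bins that were only partly methylated in WT stem cells were mostly high in TKO stem cells. In the 95 bins with an early WT level of 30 to 50%, the median reached 79.9% in TKO SC and 81.8% in TKO CP, against 44.3% in WT SC and 7.41% in WT CP. In the other bins of that class, which were not chosen, it was 68.2% in TKO SC and 37.5% in WT SC. In the 241 bins with an early level of 90 to 100%, the median was 88.9% in TKO SC and 92.4% in TKO CP, against 92.3% in WT SC and 50.2% in WT CP. TKO SC was above WT SC in 1152 chosen bins (67.4%) and in 35.6% of all bins. These WT levels took part in the choice, so no test was made of them.

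**Figure D3:**
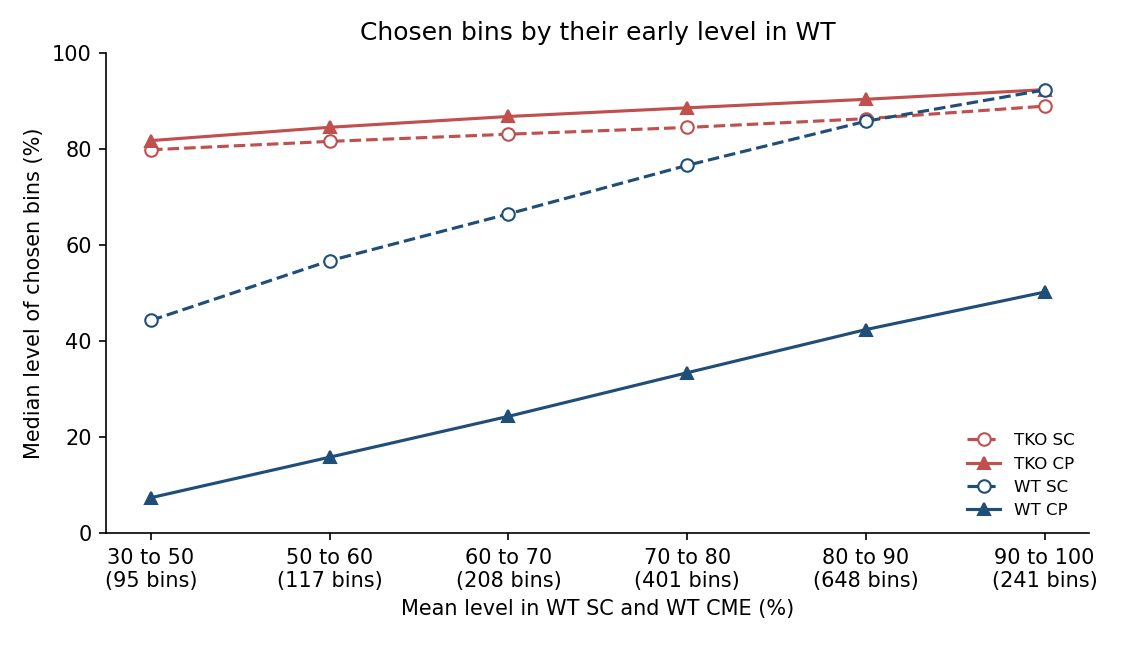
Median methylation level (%, y axis) of the chosen bins in TKO SC, TKO CP, WT SC and WT CP, by class of the mean level in WT SC and WT CME (x axis, with the number of bins). The TKO lines run from 79.9% to 92.4%, while the WT SC and WT CP lines climb with the class and lie far apart in each of the 6 classes.

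At the TNNI3 promoter 3 adjacent bins were chosen. The bin that holds the start, chr19:55669001-55670000, stood at 89.6%, 87.4% and 87.9% across TKO SC, CME and CP, and at 86.6%, 83.6%, 17.4% and 23.5% across WT SC, CME, CP and CM. By Fisher's exact test TKO CP did not differ past the threshold against TKO SC (adjusted p = 0.498) or TKO CME (adjusted p = 0.922). The bin upstream of it, chr19:55670001-55671000, stood at 81.7%, 74.3% and 81.4% across TKO SC, CME and CP, and at 78.2%, 75.1%, 33.1% and 37.2% in the 4 WT libraries. The bin downstream, chr19:55668001-55669000, stood at 87.3%, 77.4% and 86.6% in TKO, and at 81.6%, 81.8%, 45.1% and 50.3% in WT. By bin, late WT was lowest at the start. By CpG it was as low again further upstream, with 86.3% in TKO CP and 2.06% in WT CP at position -1598. Per CpG, the 4 CpGs at positions -128 to -78, counted from the start, ranged from 88.6% to 97.7% in TKO CP, and from 4.35% to 14.6% in WT CP. The CpG at position 189 stood at 70.3% in TKO CP, 75.8% in WT CP and 70.6% in WT CME. The fewest reads at a CpG of these 3 bins in any library were 15, and the widest 95% Wilson interval of a bin level reached 4.94 points to either side.

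The start of LDB3 lay in a chosen bin, chr10:88428001-88429000, with 13 CpGs. It stood at 80.6%, 77.8% and 80.8% across TKO SC, CME and CP, and at 67.6%, 66.1%, 32.6% and 25.4% across WT SC, CME, CP and CM. Its CpGs differed from one another in every library. The CpGs at positions -64 and -19 stood at 85.7% and 87.5% in TKO CP, and at 9.30% and 3.96% in WT CP. The CpG at position 218 stood at 85.9% in TKO CP and 68.7% in WT CP. The most upstream CpG, at position -204, measured 52.1% in TKO SC and 30.6% in TKO CP, against 32.3% in WT SC and 15.4% in WT CP.

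In the bin of a PRKAG2 start, chr7:151433001-151434000, levels were 80.3%, 83.1% and 85.9% across TKO SC, CME and CP, and 72.4%, 75.5%, 32.6% and 28.2% across WT SC, CME, CP and CM. Other starts of this gene were placed on either side of this start, and their levels are not given here. The CpG at position 9 stood at 94.9% in TKO CP and 6.90% in WT CP, and the one at position 157 at 92.1% in TKO CP and 74.4% in WT CP. A further chosen bin inside the gene, chr7:151386001-151387000, lay 46.8 kb from that start and stood at 91.7% in TKO CP and 41.0% in WT CP.

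FXYD1 and MIR1-1HG, singled out after their values were seen, had 19 and 29 CpGs in the bins that hold their starts. The FXYD1 bin, chr19:35630001-35631000, stood at 88.2%, 90.8% and 94.0% across TKO SC, CME and CP, and at 85.8%, 88.8%, 44.5% and 26.7% across WT SC, CME, CP and CM. WT CM was lower than WT CP there, unlike at TNNI3. Upstream, the CpG at position -448 stood at 96.7% in TKO CP, 87.0% in WT CP and 56.1% in WT CM. The CpG at position -126 stood at 90.8% in TKO CP, 21.5% in WT CP and 6.45% in WT CM.

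The MIR1-1HG bin, chr20:61147001-61148000, held 29 CpGs and stood at 86.7%, 88.2% and 88.0% across TKO SC, CME and CP, and at 54.4%, 63.6%, 18.1% and 9.04% across WT SC, CME, CP and CM. The measured bin after it, chr20:61148001-61149000, was not chosen. Its 38 CpGs stood at 87.9%, 93.3% and 92.5% across TKO SC, CME and CP, and at 7.33%, 9.38%, 2.05% and 1.88% in the 4 WT libraries. The 2 bins thus differed from each other in WT SC and WT CME, while both were high in all 3 TKO libraries. Inside the chosen bin, 15 of the 29 CpGs fell by 30 points or more in WT. Upstream, the CpG at position -325 stood at 87.9% in TKO CP, 78.9% in WT SC and 24.0% in WT CP. After the start, the one at position 183 stood at 88.2% in TKO CP, 5.88% in WT SC and 8.33% in WT CP.

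**Figure D4:**
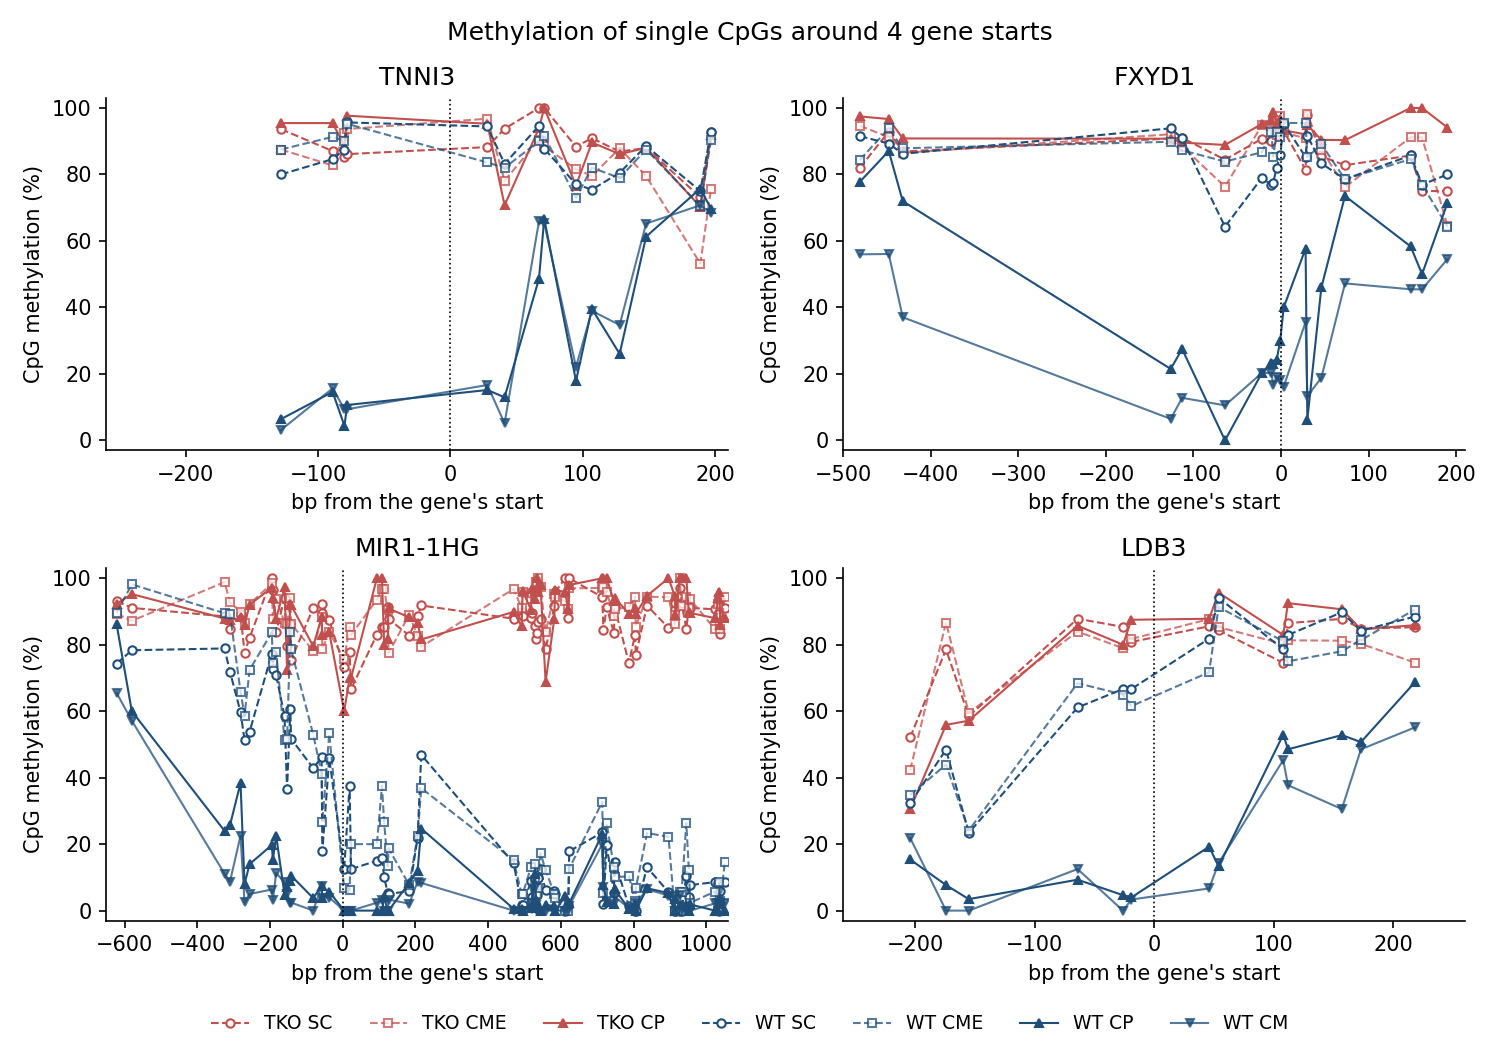
Methylation (%, y axis) of single CpGs by distance from the gene's start (bp, x axis; negative is upstream) at TNNI3, FXYD1, MIR1-1HG and LDB3, with TKO in red, WT in blue, dashed lines for SC and CME and solid lines for CP and CM; each point is 1 CpG with 10 or more reads. Around the TNNI3 start WT CP reads between 4.35% and 14.6% upstream while TKO CP reads 88.6% to 97.7%, and at MIR1-1HG the points after the start lie higher in every TKO library than in any WT library.

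Other chosen bins held starts of muscle genes, also singled out after their values were seen. SMPX, which encodes a small protein of striated muscle, stood at 82.9%, 81.0% and 87.8% across TKO SC, CME and CP, and at 80.3%, 81.3%, 32.2% and 23.9% across WT SC, CME, CP and CM (chrX:21776001-21777000). C10orf71, a muscle gene whose product binds calcineurin at the Z-disc, stood at 82.2%, 81.8% and 81.8% in TKO, and at 73.7%, 68.0%, 17.3% and 13.3% in WT (chr10:50507001-50508000). CASQ1, the calcium store protein of the sarcoplasmic reticulum in skeletal muscle, stood at 86.9%, 88.0% and 90.1% in TKO, and at 83.7%, 81.7%, 52.2% and 37.3% in WT (chr1:160160001-160161000). CRIP2, a LIM protein found in the heart, began lower, at 77.2%, 77.6% and 81.8% in TKO, and at 47.1%, 50.2%, 17.1% and 18.1% in WT (chr14:105942001-105943000). Starts of genes known from other tissues lay in chosen bins too. PLVAP, an endothelial gene, stood at 85.4% in TKO CP and 35.1% in WT CP, and AGT, which encodes angiotensinogen, at 82.3% in TKO CP and 44.2% in WT CP. SLC25A45, a mitochondrial carrier gene, reached 91.7% in TKO CP and 5.35% in WT CP.

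In all, 47 of the 11012 bins that hold a placed start were chosen, with starts of 48 genes, 34 of them protein coding. Their medians were 86.4%, 87.0% and 89.4% across TKO SC, CME and CP, and 76.2%, 75.5%, 32.2% and 27.2% across WT SC, CME, CP and CM. In TKO CP 46 of the 47 stood at 60% or more. The exception, chr3:195621001-195622000, held the start of TNK2, a non-receptor tyrosine kinase gene, at 39.0%, 36.2% and 21.2% across TKO SC, CME and CP, and at 45.5%, 47.3%, 10.1% and 17.4% across WT SC, CME, CP and CM. Its summed level fell by 32.7 points in WT, while its single CpGs changed by -22.7 to -1.21 points. Of bins within 500 bp of a placed start, 0.427% were chosen, which is 5.66% of those with an early WT level of 30% or more. Of bins over 50 kb from one, 691 were chosen, which is 2.42% of them and 3.07% of those with an early level of 30% or more.

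The promoter windows over chosen bins were poor in CpGs, with a median of 11 in 300 bases, where all placed windows had 29 and those with an early WT level of 30% or more had 17. The letters AGATAA, which GATA factors can bind, occurred on either strand in 10 of 47 windows (21.3%), in 3.56% of all 11836 placed windows and in 6.49% of the 848 windows with an early WT level of 30% or more. Of the sequences shown above, that of TNNI3 alone held them, at positions -71 and -7, both antisense to the gene. The other windows with these letters were those of COLEC11, DOK4, EML1, HNF4A, LINC02891, MYO16, RBM47, SEPTIN9 and ZC3H12C. The letters GGAATG, which TEAD factors can bind, occurred in 8 windows (17.0%), in 9.40% of all placed windows and in 13.4% of those with an early level of 30% or more. The 2 motifs cannot overlap. The compared sets differ in CpG number and were not matched for base composition, and the effect of this on the counts was not tested. Both motifs were chosen with earlier results of these data known. A match is a string of letters and no evidence of binding.

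Of 87 genes of 5 cardiac lists that could be placed and measured, 11 (12.6%) had a chosen bin in the gene or within 10 kb of it. Of 12083 other placed genes 829 (6.86%) did, and of 35 genes in 7 lists of other cell types 4 (11.4%) did. Bins were then counted per gene, so a bin near several genes entered several times. Of bins so counted, 2.75% near the cardiac genes, 1.61% near other genes and 1.62% near genes of the other cell types were chosen. Over all measured bins, without repeats, 2.01% were. The median number of measured bins near a gene was 6 for the cardiac genes, 4 for other genes and 7 for the other cell types. The cardiac transcription factors counted 2 of 18 (NFATC1 and TBX1), the sarcomere genes 2 of 20 (LDB3 and TNNI3), the channel and calcium genes 2 of 21 (CACNA1C and KCNH2), the metabolic genes 1 of 11 (PRKAG2), and the signalling genes 4 of 17 (NOTCH1, PLXNA2, SFRP5 and SMAD6). Of the other lists, endothelial genes counted 2 of 8 (KDR and ENG), endoderm genes 1 of 3 (HNF4A) and skeletal muscle genes 1 of 4 (PAX7), shares of 25%, 33.3% and 25% on few genes. No gene had a chosen bin near it among 4 smooth muscle, 6 stromal, 6 neural and 5 pluripotency genes.

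Among the cardiac transcription factors, NFATC1, a calcineurin-dependent factor needed for heart valves, had 3 chosen bins in its body. The first, chr18:77225001-77226000, stood at 84.7%, 83.2% and 90.4% across TKO SC, CME and CP, and at 68.3%, 78.0%, 39.7% and 27.9% across WT SC, CME, CP and CM. The third of them, chr18:77280001-77281000, was 93.4% in TKO CP and 45.2% in WT CP. At TBX1, a factor of the second heart field, the bin chr22:19738001-19739000 lay upstream of a start, with its middle at -5.7 kb, and stood at 86.1%, 79.9% and 88.9% in TKO, and at 85.3%, 85.0%, 36.6% and 48.6% in WT. None of these 4 bins was called between TKO libraries, since no difference reached 25 points.

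Among the ion channels, KCNH2, the potassium channel that repolarises the ventricle, had 3 chosen bins. The bin chr7:150667001-150668000, with its middle 4.1 kb inside the gene from a start, stood at 92.2%, 95.4% and 96.1% across TKO SC, CME and CP, and at 90.5%, 77.2%, 5.99% and 25.2% across WT SC, CME, CP and CM. WT CP was the lowest of the 7, on as few as 116 reads in 1 library. CACNA1C, the pore of the cardiac L-type calcium channel, had chosen bins far inside its body. The bin chr12:2613001-2614000 stood at 84.7%, 80.2% and 78.6% in TKO, and at 74.6%, 71.7%, 21.6% and 23.6% in WT.

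Among the signalling genes, PLXNA2, a semaphorin receptor of the outflow tract, held a bin with one of the widest gaps between the genotypes. The bin chr1:208338001-208339000 stood at 83.4%, 88.5% and 96.1% across TKO SC, CME and CP, and at 86.3%, 79.5%, 3.97% and 2.28% across WT SC, CME, CP and CM. TKO CP exceeded WT CP by 92.2 points there. SMAD6, an inhibitor of BMP signalling, had a pair of adjacent chosen bins from 3.9 kb inside the gene. The first, chr15:66998001-66999000, stood at 93.6%, 91.2% and 97.1% in TKO, and at 95.3%, 90.2%, 34.6% and 32.2% in WT. NOTCH1, a receptor of endocardial signalling, held chr9:139421001-139422000 at 94.5% in TKO CP, 48.4% in WT CP and 61.2% in WT CM. SFRP5, a secreted Wnt inhibitor, had chr10:99541001-99542000 upstream of its start at 86.7% in TKO CP and 37.2% in WT CP.

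Genes of other lineages were also near chosen bins. KDR, a VEGF receptor of endothelium and of early mesoderm, held chr4:55946001-55947000 at 89.2% in TKO CP and 55.9% in WT CP. HNF4A, a transcription factor of liver and gut, held chr20:42984001-42985000 at a start, with 91.3% in TKO CP, 53.3% in WT CP and 70.6% in WT CM. Another bin inside it, chr20:43040001-43041000, stood at 95.4% in TKO CP and 38.3% in WT CP. PAX7, a factor of muscle stem cells, held chr1:19057001-19058000 at 85.8% in TKO CP and 42.1% in WT CP. The bin near ENG, chr9:130571001-130572000, lay inside FPGS and stood at 65.7% in TKO CP and 21.9% in WT CP.

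Many listed genes have a start that could not be placed on hg19, and for them only the interval between their nearest placed neighbours is known. With an interval of up to 250 kb, a limit set after the data were seen, there were 43 such genes on the cardiac lists, of which 10 had a chosen bin in the interval, and 30 on the lists of other cell types, of which 3 did. Of the bins in these intervals, 2.38% were chosen for the cardiac genes (11 of 463) and 3.30% for the others (11 of 333), beside 2.01% of all bins. The interval of NKX2-5, a founding factor of the cardiac lineage, runs between the starts of BNIP1 and STC2 over 184 kb and held 17 measured bins, of which chr5:172717001-172718000 was chosen. It stood at 80.02%, 82.0% and 90.8% across TKO SC, CME and CP, and at 88.1%, 88.2%, 16.4% and 12.1% across WT SC, CME, CP and CM. The interval of MYL7, the atrial myosin light chain, runs over 118 kb between POLM and YKT6 and held chr7:44187001-44188000, at 89.1%, 90.1% and 89.1% in TKO, and at 83.6%, 85.7%, 16.4% and 32.8% in WT. That of DES, the muscle intermediate filament, held chr2:220269001-220270000 at 87.6% in TKO CP and 33.2% in WT CP. The interval shared by NPPA and NPPB, which encode the natriuretic peptides, held chr1:11925001-11926000 at 80.4% in TKO CP and 33.2% in WT CP. The other cardiac ones were CRYAB, HSPB7, CACNA1G, CACNA1H and ADPRHL1. The skeletal muscle genes ACTN3, TNNT3 and TNNI2 made up the rest, the last pair sharing an interval with 10 chosen bins of 80. How far these bins lie from the genes was not measured.

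The 8 largest falls in WT lay mostly away from placed starts. The largest, -87.4 points, was at chr21:46831001-46832000 inside COL18A1, which encodes the collagen that gives rise to endostatin. It stood at 90.4%, 87.1% and 92.9% across TKO SC, CME and CP, and at 89.9%, 93.6%, 4.14% and 4.57% across WT SC, CME, CP and CM. The next, inside CLEC16A at chr16:11227001-11228000, stood at 89.7% in TKO CP and 4.19% in WT CP. Bins at chr10:80899001-80900000, chr7:97583001-97584000, chr2:28907001-28908000, chr22:28029001-28030000, chr18:46307001-46308000 and chr18:56260001-56261000 followed, with falls from -85.2 to -82.1 points. In these 6, TKO CP ranged from 91.2% to 94.8% and WT CP from 1.08% to 11.6%. The bin at chr18:46307001-46308000 lay 168.2 kb from the start of SMAD7 and held 13 CpGs at 1.08% in WT CP and 1.04% in WT CM.

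The 3 chosen bins closest to 30 points, at chr7:2287001-2288000, chr3:194751001-194752000 and chr12:109003001-109004000, had WT differences of -30.01, -30.02 and -30.02 points and stood at 95.2%, 90.9% and 93.8% in TKO CP. The 3 bins that just missed it, at chr11:123056001-123057000, chr9:139557001-139558000 at the start of EGFL7, and chr2:10184001-10185000 at the start of KLF11, had differences of -29.99, -29.98 and -29.97 points. The first stood at 93.8% in TKO CP and the EGFL7 bin at 89.2%. The KLF11 bin stood at 35.5%, 41.7% and 58.5% across TKO SC, CME and CP.

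Within the chosen bins, often only some of the CpGs fell in WT. Of the 14250 CpGs in chosen bins, 68.7% fell by 30 points or more and 9.59% fell by under 10 points or rose. In 354 bins (20.7%) every CpG fell by 30 points or more, and in 866 (50.6%) every CpG fell by 15 points or more. In 6 bins no CpG fell by 30 points or more. There the fall of the summed level differs from that of the CpGs because reads were spread over the CpGs differently in different libraries, and the bin of the TNK2 start is one of them. In 554 bins (32.4%) a CpG that fell by under 10 points lay in the same bin as one that fell by 50 or more. In 359 of these 554 the largest step in the change between neighbouring CpGs was crossed within 100 bp, and its median width was 55.5 bp. Over all chosen bins that width had a median of 31 bp, and the measured CpGs of a bin spanned a median of 198 bp. The spacing of measured CpGs thus limits these widths, and no sharpness of a boundary is read from them. Over the chosen bins, the change per CpG had a median standard deviation within the bin of 6.38 points in TKO and 15.9 points in WT, and WT had the larger one in 1576 bins. The WT spread includes the bins' own selection for a large change, and CpGs were covered by a median of 61 reads. Levels in TKO also lay nearer 100% than those in late WT, which leaves less room for spread, and no correction was made for this.

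Outside the chosen bins the WT change was smaller, which the rule partly fixes, since a measured bin with a fall of 30 points would itself be chosen. CpGs with an early WT level of 50% or more changed by a mean of -13.9 points in WT at 1 to 250 bp from a chosen bin, -7.82 points at 251 to 500 bp, -5.76 points at 501 to 1000 bp and -2.73 points beyond 20 kb. CpGs inside chosen bins changed by a mean of -40.6 points. In TKO the mean change at the same distances was 4.16, 3.99, 3.59 and 3.16 points, and 3.30 points inside. Of the chosen bins, 652 had a measured bin directly beside them. The 658 bins beside them that were not chosen, and so by the rule fell by under 30 points, had a median WT change of -4.04 points, 479 of them moved by under 10 points, and 117 were under 20% early in WT.

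**Figure D5:**
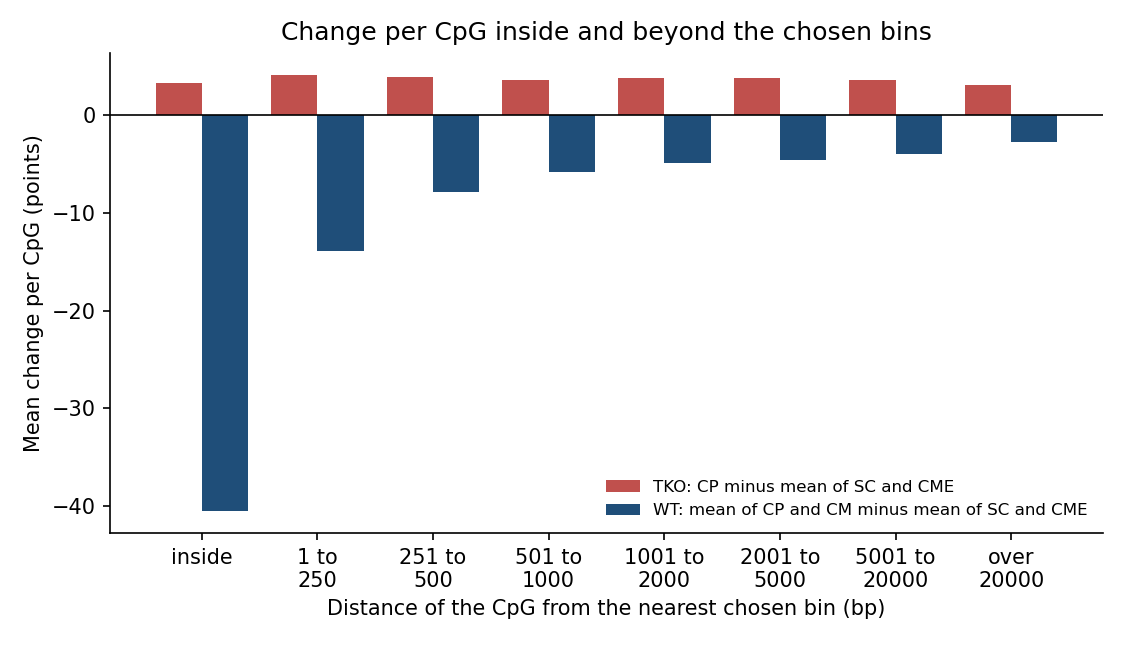
Mean change per CpG (points, y axis) inside the chosen bins and by distance from the nearest one (bp, x axis), for TKO (red, CP minus mean of SC and CME) and WT (blue, mean of CP and CM minus mean of SC and CME); CpGs outside are those with an early WT level of 50% or more. The WT bar is -40.6 points inside and -13.9 points at 1 to 250 bp, while the TKO bars lie between 3.16 and 4.16 points.

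Adjacent chosen bins formed 1646 regions, of which 1589 were a single bin, 51 were pairs and 6 held 3 or 4 bins. Among these 6, the one with the largest mean WT change was chr16:85568001-85571000 inside GSE1, at a mean of 90.2% in TKO CP and with a mean change of -61.0 points in WT. Its first bin stood at 91.0% in TKO CP and 11.9% in WT CP, and the last one at 87.9% in TKO CP and 33.3% in WT CP. The second was chr21:46829001-46832000, where the bin of the largest fall adjoined a pair at 57.5% and 55.9% in WT CP and at 93.6% and 92.9% in TKO CP. The third was the TNNI3 region.

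A few chosen bins differed from the rest in TKO. At chr8:144361001-144362000, with 23 CpGs, levels were 43.6%, 35.8% and 7.53% across TKO SC, CME and CP, and 79.3%, 79.3%, 24.6% and 28.7% across WT SC, CME, CP and CM. By Fisher's exact test TKO CP was called lower than its stem cell stage (adjusted p = 9.18e-226), and it was below WT CP. The bin before it, chr8:144360001-144361000, stood at 39.6%, 44.1% and 25.6% in TKO and at 30.5% in WT CP. The bin chr4:190641001-190642000 stood at 50.3% in TKO CP and 52.2% in WT CP. The other 5 bins called lower in TKO CP than in TKO SC kept higher levels. They were inside COL26A1 (50.5% in TKO CP and 77.6% in TKO SC), at chr17:78806001-78807000 (58.2% and 87.1%), at chr19:15183001-15184000 (61.1% and 89.4%), in LENG8 (39.5% and 65.2%) and in NOP56 (31.2% and 65.1%). The bin at chr21:44352001-44353000 was called lower against TKO CME, at 63.2% in TKO CP and 88.3% in TKO CME. In the other direction, a bin near ZNF423, chr16:49732001-49733000, stood at 78.7% in TKO CP, 46.0% in TKO CME and 44.9% in TKO SC, and was called against both.

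Among the bins under 50% in TKO CP were some that were lower in every TKO library than in early WT. At chr5:11903001-11904000, with its middle 1058 bp inside CTNND2 from a start, a catenin gene of neurons, 29 CpGs stood at 0.49%, 0.43% and 0.41% across TKO SC, CME and CP, and at 33.5%, 32.4%, 0.21% and 0.066% across WT SC, CME, CP and CM. The bin inside PHKB, which encodes a subunit of phosphorylase kinase, stood at 47.1%, 45.5% and 46.2% in TKO, and at 92.3%, 93.2%, 44.9% and 44.6% in WT (chr16:47539001-47540000). At SERPINB9 the bin chr6:2902001-2903000 stood at 31.3%, 16.5% and 11.8% in TKO, and at 63.6%, 37.4%, 10.5% and 9.73% in WT. The bin chrX:125715001-125716000 stood at 33.3%, 26.3% and 39.5% in TKO, and at 77.6%, 77.2%, 38.1% and 44.4% in WT, with up to 133507 reads in 1 library.

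The widest gaps between TKO CP and WT CP, besides PLXNA2, lay in bins that were intermediate in early WT. Inside ACAP3, chr1:1240001-1241000 stood at 85.8%, 89.4% and 95.2% across TKO SC, CME and CP, and at 44.3%, 40.8%, 2.25% and 1.43% across WT SC, CME, CP and CM. At chr16:87087001-87088000 levels were 86.7%, 91.3% and 95.8% in TKO, and 45.3%, 46.9%, 3.47% and 9.23% in WT. In both bins each TKO library stood far above every WT library, the stem cell stage included.

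CpG number bore on how often a bin was chosen. Of bins with an early WT level of 30% or more, 3.53% were chosen where the bin held 5 or 6 CpGs, 2.97% at 10 to 14 CpGs, 1.67% at 20 to 39 CpGs, and 0 of 464 at 40 or more. The median was 7 CpGs in the chosen bins and 9 in all bins. In each of the 5 classes with chosen bins the median in TKO CP lay between 88.8% and 89.8%.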

How the data were processed

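Enhanced reduced representation bisulfite libraries from 3 TKO and 4 WT samples were used, grouped by their titles. Per the file headers, the authors' tables hold, for every CpG and strand, the coverage as a read count and the percent read as C and as T. Alignment and calling were done at a core facility, per the labels' protocols. The submitters' processing notes name hg19. Aligner and caller: not given in the sources used here. Deposited coverage counts start at 10 in every file, so CpGs read fewer times are absent. Coverage times percent gave read numbers, which were summed over strands at 1734462 CpGs with 10 or more reads in all 7 libraries, and then over 1 kb bins.

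Fisher's exact test was run per bin and adjusted by the Benjamini-Hochberg method over all bins. It compares libraries. Tests and 95% Wilson intervals hold counting error alone, and too little of it, since 1 read enters at several CpGs and PCR copies are not independent. Over the chosen bins the intervals reached a median of 3.38 points to either side and the fewest reads were 50. The test was checked on simulated reads that were drawn independently of one another, so the check does not cover this dependence.

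No hg19 annotation was used. RefSeq promoter windows (GRCh38.p14) were placed on hg19 by matching their CpG spacing and gene order to the CpGs in the files. This placed 14745 of 35116 windows, for 12284 of 27305 genes, and 70 further matches were dropped because their distance to neighbours differed between builds. A gene's body runs from its placed start over the length given by RefSeq, so its far end is approximate, and exons and introns were not told apart. No windows of chromosome 8, which holds 70 chosen bins, were used.

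The bins, gene lists, motifs and displayed loci were chosen with earlier results of these data known. All listed cardiac genes with a chosen bin in or within 10 kb of the gene are named, then up to 3 genes of each other list, the 8 largest falls, 3 runs of adjacent bins, the 3 widest and narrowest gaps between TKO CP and WT CP, and 3 bins on either side of the limit. Bins called between TKO libraries, bins under 50% in TKO CP and other genes with starts in chosen bins were added after their values were seen. Alternatives changed the coverage, bin, CpG number, limit, libraries and conversion correction. The tools were numba 0.67.0, scipy 1.17.1, statsmodels 0.14.6, pandas 2.3.3, numpy 2.4.6 and matplotlib 3.10.9, under Python 3.11.15.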

Additional observations from a re-analysis of the deposited data

How the results depend on the processing

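The number of chosen bins was 856 at a limit of 40 points and 428 with 10 or more CpGs, against 1710. It lay between 1234 and 1932 with 20 reads per CpG, levels as means over CpGs, bins shifted by 500 bp, a correction for the mitochondrial share of C, WT CM minus WT SC alone or WT CP minus WT CME alone. With levels as means over CpGs, which give each CpG the same weight, 1458 of the 1710 bins (85.3%) were chosen again. The median TKO change stayed between 3.58 and 3.81 points and the median TKO CP level between 89.4% and 89.7% in all 8 of these alternatives. The share of bins in which every CpG fell was 8.64% with 10 or more CpGs, 40.1% at 40 points, 18.7% for WT CM minus WT SC, 17.4% for WT CP minus WT CME, and 50.6% when a CpG counted as fallen at 15 points, against 20.7%. Calls of TKO CP against TKO SC numbered 2 with 10 or more CpGs, 3 at 40 points and 13 for WT CP minus WT CME (3 lower and 10 higher), against 7. Calls against TKO CME numbered 2 with 10 or more CpGs and 5 at 40 points, against 9. With fewer bins chosen, fewer can be called, and the cause of the other shifts was not tested. Cardiac genes with a chosen bin numbered 9 within 2 kb and 16 within 50 kb, against 11. No paired analysis was possible because the groups share no replicate numbers, each genotype and stage being 1 library. With 1 library per group no spread between cultures is known, and over the chosen bins the levels have intervals of up to 12.0 points to either side.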
